A study of Rattus norvegicus with 50 samples.

Results

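The comparison described here is a step between the 2 lowest exposures of an inhalation study in rats. It sets 5 lungs exposed to 0.08 mg/m3 nickel subsulfide for 1 week against 5 exposed to 0.04 mg/m3 for the same time, which are 10 of the 50 arrays in the series. The arrays were chosen by their titles alone, and the groups were compared directly, without subtracting controls. The study used male Fischer F344 rats, about 7 to 8 weeks old when received, and 10 groups that combined 5 concentrations (0.60, 0.15, 0.08, 0.04 or 0 mg/m3) with 1 or 4 weeks of exposure. Both groups compared here breathed the aerosol for 6 hours per day on 5 days, and the concentrations correspond to about 0.06 and 0.03 mg of nickel per m3. Each group held 13 animals, of which 8 were set aside for expression and lung nickel, and the 5 RNA samples of best quality from those 8 were put on arrays. RNA came from dissected distal airway tissue of the right caudal lobe, so each array averages many cell types, and fewer cells of a type cannot be told apart from less RNA per cell. Values are log2 intensities of Affymetrix HT rat arrays, and a difference of 1 is a doubling of intensity.

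Nickel subsulfide is a poorly soluble nickel compound that is carcinogenic in rat lungs after long inhalation. Particles deposit in small airways and alveoli, are taken up by macrophages and epithelial cells, and release nickel ions inside them. Inhaled nickel is known to cause inflammation and epithelial proliferation in the rat lung. A comparison of neighbouring low concentrations shows which genes differ along a small part of that dose range.

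The tissue carried lung markers in all 10 arrays. Sftpc, the surfactant protein C gene of alveolar type 2 cells, measured 13.46, 13.39, 13.54, 13.46 and 13.45 at 0.08 mg/m3 and 13.43, 13.41, 13.52, 13.52 and 13.49 at 0.04 mg/m3 (replicates 1 to 5, here and throughout). Scgb1a1, the club cell secretory protein gene, lay between 13.44 and 13.68. Both genes sit near the top of the measured range, and neither was called different between the groups (limma adjusted p = 0.915 and 0.731).

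The arrays of the higher concentration were not alike. A first principal component was computed from the 40 arrays of the other 8 groups, where it carried 49.6% of the variance, and the 10 arrays were then placed on it. The 0.08 mg/m3 arrays lay at -74.5, -48.5, -7.65, -26.2 and -38.5, a mean of -39.1 ± 25 (SD, n = 5). The 0.04 mg/m3 arrays lay at -81.2, -95.3, -73.2, -94.2 and -88, a mean of -86.4 ± 9.29. Replicate 1 of 0.08 mg/m3 fell inside the range of the 0.04 mg/m3 arrays, and the other 4 lay outside it. The difference of means was 47.3 (exact two-sided permutation test, p = 0.0159, 0.0357 after adjustment over 3 measures, where 0.00794 is the smallest p possible). The 1-week controls lay from -89.6 to -55.6, the 1-week arrays at 0.15 and 0.60 mg/m3 had means of -4.56 and -10.5, and the means of the 4-week groups ran from 6.43 to 26.1. The array median was also 0.123 higher at 0.08 mg/m3 (5.453 ± 0.0743 against 5.33 ± 0.0509, exact permutation p = 0.0238, adjusted 0.0357). The interquartile range of an array was 0.13 wider, which did not pass (exact permutation p = 0.0556).

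**Figure D1:**
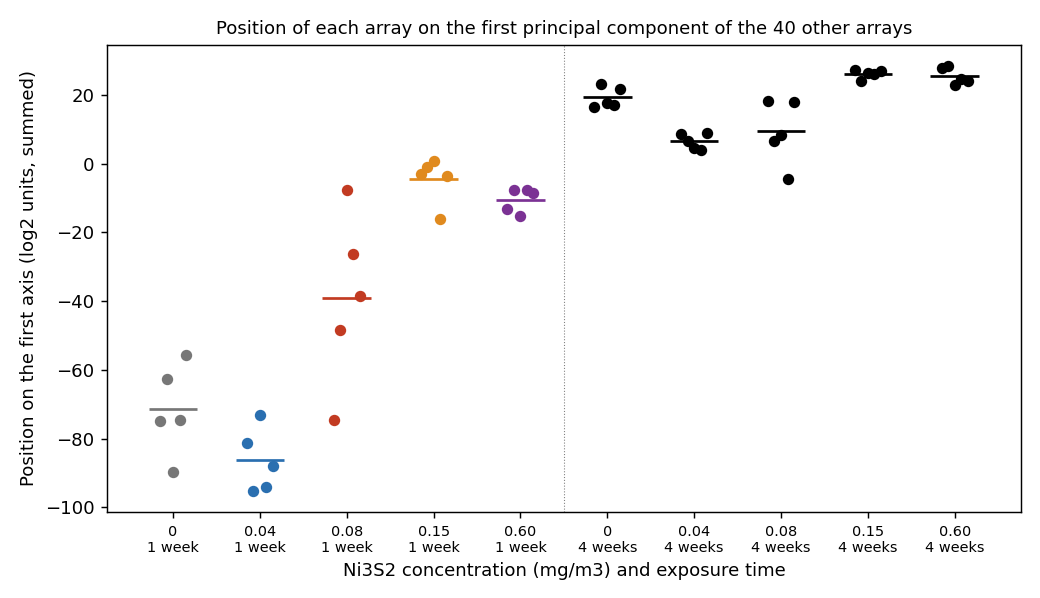
Position of each of the 50 arrays (points) on the first principal component of the 40 arrays outside the comparison, in log2 units summed over genes, by concentration and exposure time; horizontal lines are group means. The 5 arrays at 0.08 mg/m3 and 1 week run from -74.5 to -7.65, while those at 0.04 mg/m3 stay between -95.3 and -73.2.

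Expression differed widely between the concentrations. Of 13438 genes tested, 6227 (46.3%) passed an adjusted p of 0.05 in limma with Benjamini-Hochberg adjustment, and these are the genes said to have risen, fallen or been called. At 0.08 mg/m3, 3014 (22.4%) were higher and 3213 (23.9%) lower than at 0.04 mg/m3. Most differences were small: 170 genes (1.27%) rose and 54 (0.402%) fell by at least 2-fold. The arrays of the groups did not overlap in 1321 genes that were higher (9.83%) and 1418 that were lower (10.6%), and 2646 of these were called (19.7% of all tested). Over all genes the median difference was -0.0499 and the median size of a difference 0.349.

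Position on the axis moved with these calls. When each array's position was added to the model as a covariate, 9 genes (0.067%) were called, all higher, and 2 of the 6227 were among them. In that fit the median size of a difference was 0.169 and the median standard error 0.176, against 0.144 without the covariate. Because position differs between the groups, its part in the calls and that of concentration cannot be told apart. Per called gene, replicates of 0.08 mg/m3 had covered a median fraction of 0.318, 0.821, 1.46, 1.24 and 1.15 of the difference between group means, with replicate 1 nearest to the 0.04 mg/m3 mean in 87.6% of called genes. The SD among replicates was larger at 0.08 than at 0.04 mg/m3 in 70.2% of all genes, with medians of 0.253 and 0.177. Without replicate 1 of 0.08 mg/m3, 7436 genes were called, and over all single omissions the count ran from 4611 to 7436.

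Among called genes whose groups did not overlap, the 12 with the largest rises included genes of glycogen metabolism, secretion, complement control and DNA synthesis. Called genes with overlapping groups are outside that choice, and some had larger differences: Ucp1, the uncoupling protein of brown fat, differed by 3.09 ± 1.16, with 11.19, 11.35, 6.03, 7.12 and 10.17 at 0.08 mg/m3 against 5.80, 8.11, 3.17, 8.39 and 4.93 at 0.04 mg/m3. Ppp1r3b, which directs protein phosphatase 1 to glycogen, measured 6.34, 7.00, 7.89, 7.60 and 7.73 at 0.08 mg/m3 against 5.74, 5.43, 5.72, 5.86 and 5.14 at 0.04 mg/m3. The groups did not overlap, and the rise of 1.74 ± 0.26 (SE) was 3.33-fold (adjusted p = 0.00345, limma). Of its 2 probe sets, 1 was called. Gabrp, the pi subunit of the GABA-A receptor, measured 7.74, 8.22, 8.78, 8.65 and 8.73 against 7.32, 6.61, 5.68, 7.14 and 6.75, a rise of 1.72 ± 0.29 that both its probe sets showed. Its lowest value, 5.68, belonged to replicate 3 of 0.04 mg/m3, where Clca1 was low as well.

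Clca1, a secreted regulator of airway mucus made by goblet cells, measured 10.45, 10.55, 10.91, 11.35 and 11.25 at 0.08 mg/m3. At 0.04 mg/m3 it measured 9.89, 9.36, 7.66, 10.22 and 9.60. The groups did not overlap, replicate 3 of 0.04 mg/m3 lay far below the rest of its group, and the rise was 1.56 ± 0.39 (adjusted p = 0.00757). Cfi, the complement factor I that inactivates C3b, measured 8.06, 8.59, 9.43, 9.41 and 9.48 against 7.90, 7.39, 7.04, 7.66 and 7.22, a rise of 1.55 ± 0.27 (adjusted p = 0.00345). Replicate 1 of 0.08 mg/m3 lay close to the 0.04 mg/m3 arrays here, and replicates 3 to 5 lay together more than 1 unit above it.

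Rrm2, the regulated subunit of ribonucleotide reductase that supplies DNA precursors, measured 6.63, 7.09, 8.04, 7.82 and 8.08 against 5.98, 5.97, 6.59, 5.85 and 6.19. It rose by 1.41 ± 0.26 (2.67-fold, adjusted p = 0.00358), and 1 of its 2 probe sets was called. Steap4, a metalloreductase that reduces iron and copper, measured 6.43, 6.87, 7.20, 7.23 and 7.12 against 6.14, 5.76, 4.85, 5.50 and 5.19, a rise of 1.48 ± 0.23. Mcpt1, a mast cell protease, rose by 1.60 ± 0.26 from a mean of 5.58 ± 0.47 to 7.18 ± 0.52 (SD, n = 5). In a list of other mast cell markers, 1 of 8 measured was called higher and 1 lower. Both Steap4 and Mcpt1 had separate groups.

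Mitochondrial and trafficking genes made up much of the remainder. Ndufs1, a core subunit of respiratory complex I, measured 7.95, 8.65, 9.17, 8.95 and 8.99 against 7.61, 7.40, 7.63, 7.56 and 7.26, a rise of 1.25 ± 0.20. Etfrf1, a regulator of the electron transfer flavoprotein, rose by 1.31 ± 0.23. Myo5b, a motor for recycling vesicles, rose by 1.30 ± 0.24, and Fig4, a phosphoinositide phosphatase of endosomes and lysosomes, by 1.36 ± 0.25. Lypd6b, a member of the Ly6 family, rose by 1.25 ± 0.23. Adjusted p over these 5 genes ran from 0.00345 to 0.00359.

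The 12 largest falls, chosen by the same rule, included uroplakins, transcription factors and growth factor receptors. Upk1a, a uroplakin known from the bladder lining, measured 6.73, 6.54, 4.97, 5.38 and 5.68 at 0.08 mg/m3 and 7.05, 7.51, 7.35, 7.38 and 7.19 at 0.04 mg/m3. It fell by 1.43 ± 0.28 (SE) on the log2 scale, 2.7-fold (adjusted p = 0.00388). Replicates 1 and 2 lay nearer the 0.04 mg/m3 arrays than replicates 3 to 5. A second uroplakin, Upk3a, fell by 1.21 ± 0.23 from a low level, 5.30 ± 0.47 to 4.08 ± 0.37. Another uroplakin, Upk1b, went the other way, with means of 8.42 ± 0.35 at 0.08 and 7.69 ± 0.67 at 0.04 mg/m3 (SD).

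Cebpd, a transcription factor induced by glucocorticoids and inflammation, measured 9.04, 8.82, 7.95, 8.08 and 8.15 against 9.76, 9.84, 9.66, 9.41 and 9.64. The fall was 1.26 ± 0.20, written here as a log2 difference of -1.26 (adjusted p = 0.00345), and 2 of 3 probe sets were called in that direction. Maff, a small Maf transcription factor, measured 8.42, 7.84, 7.35, 7.63 and 7.80 against 8.71, 9.05, 8.93, 8.88 and 8.87, a difference of -1.08 ± 0.17. For both genes the 5 values at 0.08 mg/m3 lay below every value at 0.04 mg/m3.

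Fgfr4, a fibroblast growth factor receptor, measured 7.37, 7.15, 7.27, 7.12 and 7.01 against 7.88, 8.32, 8.53, 7.94 and 8.77, a difference of -1.10 ± 0.17. Its 0.08 mg/m3 arrays lay close together (SD 0.14), while those at 0.04 mg/m3 were wider apart (SD 0.38). Fzd2, a Wnt receptor, differed by -1.10 ± 0.18, and Hgfac, the protease that activates hepatocyte growth factor, by -1.21 ± 0.23. Chst2, a sulfotransferase, differed by -1.14 ± 0.14 and Mfsd2a, a transporter of lysophospholipids, by -1.12 ± 0.21. Slc12a9, Dipk1b and Gdpd5 differed by -1.10 ± 0.22, -1.09 ± 0.13 and -1.08 ± 0.17. All 3 probe sets of Dipk1b were called. With axis position as a covariate none of these 24 genes was called, with adjusted p from 0.256 to 0.794, and none turned its direction.

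**Figure D2:**
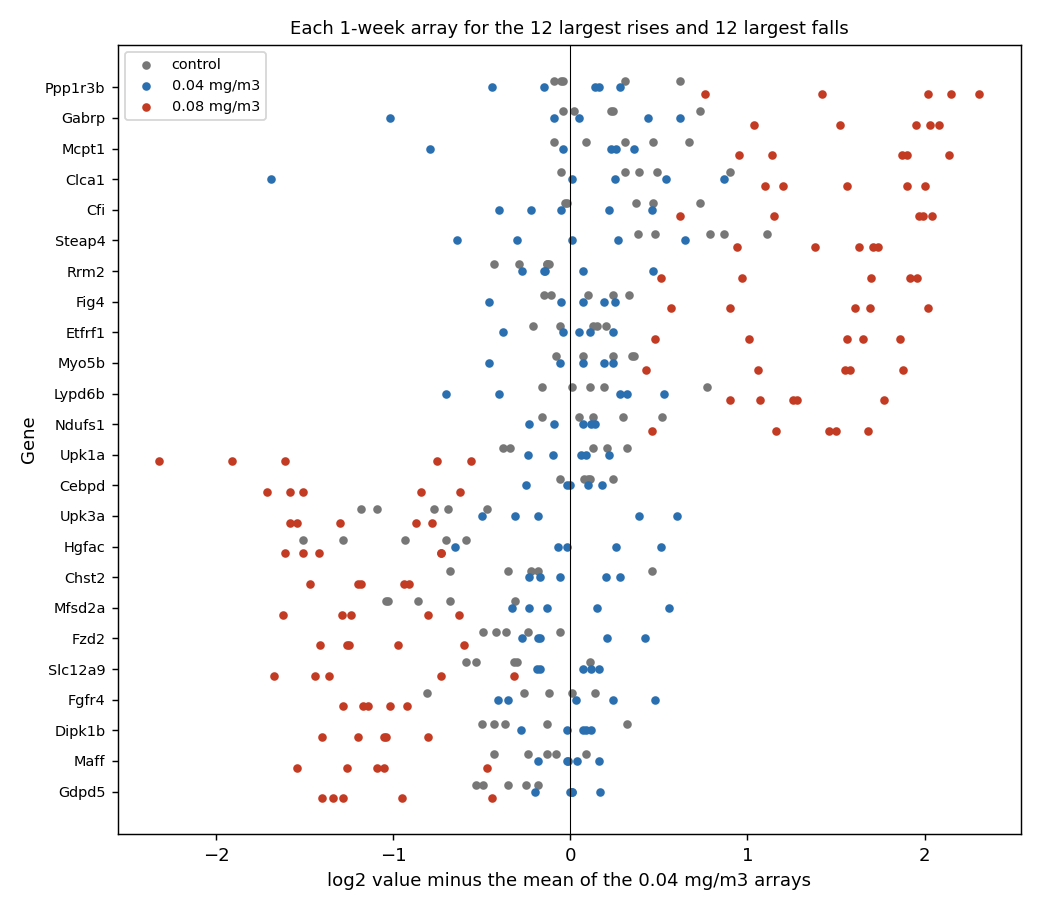
Values in each 1-week array (points) of the 24 genes chosen by size of difference from the called genes with separate groups, 12 higher and 12 lower, as log2 intensity minus the mean of the 0.04 mg/m3 arrays; colours mark 0.08 mg/m3, 0.04 mg/m3 and control arrays. The separation of 0.08 from 0.04 mg/m3 was a condition of the choice; the spread of the 0.08 mg/m3 points, from 6.34 to 7.89 before subtraction for Ppp1r3b, and the place of the controls were not.

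The controls, which took no part in the calls, lay near the lower concentration for most of the called genes. Their mean fell between the means of the exposed groups and nearer to 0.04 mg/m3 in 3649 called genes (58.6%), and beyond the 0.04 mg/m3 mean in 1000 (16.1%). In 1441 (23.1%) it was between the groups but nearer to 0.08 mg/m3, and in 137 (2.2%) it was beyond 0.08 mg/m3. Ppp1r3b averaged 5.73 ± 0.31 in controls and 5.58 ± 0.29 at 0.04 mg/m3. Hgfac was of the other kind, with a control mean of 5.78 ± 0.39 close to the 5.58 ± 0.43 at 0.08 mg/m3 and below the 6.78 ± 0.43 at 0.04 mg/m3. Upk3a and Mfsd2a likewise had control means of 4.46 and 5.01, nearer to 0.08 mg/m3 (4.08 and 4.67) than to 0.04 mg/m3 (5.30 and 5.79).

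The step ran in the direction of the response to the highest concentration. The 100 genes with the largest rises at 0.60 mg/m3 over controls at 1 week were taken from arrays of neither group compared. Of these, 67 were called higher at 0.08 than at 0.04 mg/m3 and 0 lower, with a median difference of 0.74, against 22.4% higher and a median of -0.0499 among all genes. Of the 100 largest falls, 71 were called lower and 0 higher, with a median of -0.75. Averaged over the 100 rising genes, and as deviations from the mean of all 50 arrays, the 0.08 mg/m3 arrays stood at -0.65, -0.462, -0.0303, -0.0896 and 0.146. The 0.04 mg/m3 arrays stood at -0.863, -0.964, -0.969, -0.908 and -1.15, and the controls between -1.23 and -0.948. With axis position as a covariate, 0 members of either list were called, and their medians were 0.301 and -0.174.

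The lists of the response at 4 weeks behaved less uniformly. Of the 100 largest rises at 0.60 mg/m3 at 4 weeks, 24 were called higher and 8 lower, with a median of 0.25. Of the 100 largest falls at 4 weeks, 27 were called higher and 16 lower, with a median of 0.027. The percentage called higher in these lists was close to the 22.4% of all genes, and that called lower was under the 23.9% of all genes. Of the 100 rises at 4 weeks, 70 had a positive difference, and of the 100 falls 51.

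Genes of intermediate steps can be followed over all 5 concentrations at 1 week. Rrm2 averaged 5.90 ± 0.14 in controls, 6.12 ± 0.29 at 0.04, 7.53 ± 0.64 at 0.08, 9.13 ± 0.68 at 0.15 and 9.73 ± 0.21 at 0.60 mg/m3 (SD, n = 5). The values at 0.08 mg/m3 ran from 6.63 to 8.08 and reached the lowest of 0.15 mg/m3, 7.94. Retnla, a secreted resistin-like protein of type 2 inflammation, averaged 8.36, 8.96, 9.75, 12.43 and 13.03 in the same order. Its step from 0.04 to 0.08 mg/m3 was 0.78 ± 0.20 (adjusted p = 0.00844, limma), with arrays of 9.40, 9.14, 10.31, 10.03 and 9.85 against 8.98, 8.66, 9.20, 8.93 and 9.05. Replicate 2 of 0.08 mg/m3 lay below the highest 0.04 mg/m3 array. Upk1a averaged 7.28 in controls, 7.29 at 0.04, 5.86 at 0.08, 4.68 at 0.15 and 4.71 at 0.60 mg/m3.

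**Figure D3:**
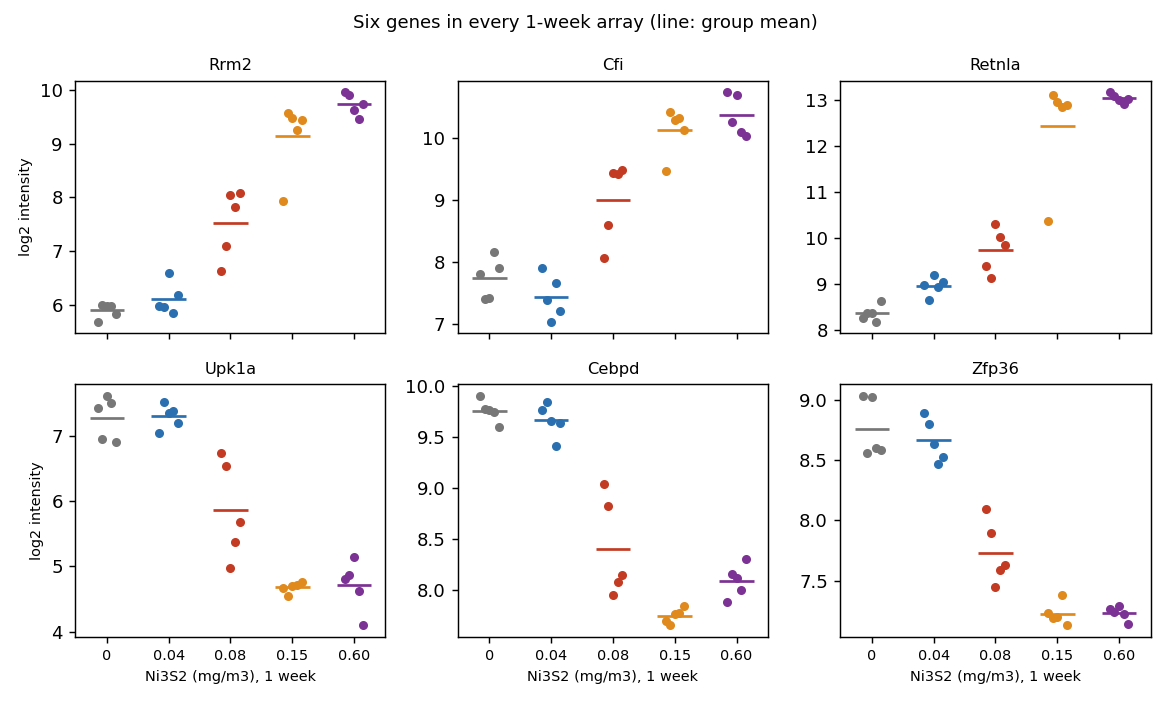
log2 intensity of 6 genes, picked after their values were seen, in every 1-week array (points) by Ni3S2 concentration, with the group mean as a line. For Rrm2 the 0.08 mg/m3 arrays run from 6.63 to 8.08, above all 0.04 mg/m3 arrays (highest 6.59), and for Upk1a from 4.97 to 6.73, below all of them (lowest 7.05).

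Many genes of cell division rose. Mitosis needs cyclin B and its kinase, spindle motors and cytokinesis proteins, which are made anew in each cycle. Of 34 mitosis genes measured, 17 (50%) were called higher and 0 lower, with a median difference of 0.39, against 22.4% and 23.9% of all genes. The count stayed between 16 and 18 when any 1 array was left out. Ccnb1, which encodes cyclin B1, measured 4.77, 5.37, 6.13, 6.08 and 6.21 at 0.08 mg/m3 against 4.83, 4.90, 4.31, 4.76 and 4.25 at 0.04 mg/m3, a rise of 1.10 ± 0.26 (adjusted p = 0.0062). Replicate 1 lay within the 0.04 mg/m3 arrays and the other 4 lay above them. Melk, a mitotic kinase, rose by 1.25 ± 0.34, the mitotic kinesin Kif20a by 1.08 ± 0.25, and Anln, an actin-binding protein of the cleavage furrow, by 1.06 ± 0.25.

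Averaged over the list, as deviations from the mean of all 50 arrays, the 0.08 mg/m3 arrays stood at -0.384, -0.267, -0.0279, -0.174 and -0.0521. The 0.04 mg/m3 arrays stood at -0.542, -0.474, -0.588, -0.626 and -0.844 and did not overlap with them. The controls lay from -0.826 to -0.598. No mitosis gene was called with axis position as a covariate, where the median was 0.228 and 28 of 34 members were positive.

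Genes that prepare DNA synthesis were called higher more often than lower, against 22.4% higher and 23.9% lower among all genes. Of 28 G1/S and replication genes, 13 (46.4%) were called higher and 4 (14.3%) lower, and 8 were higher without replicate 4 of 0.08 mg/m3. The 4 lower calls became 0 without replicate 1, 2 or 4 of 0.04 mg/m3 or replicate 3 or 4 of 0.08 mg/m3, 2 without replicate 5 of 0.04 mg/m3 and 1 without replicate 2 of 0.08 mg/m3. Mcm6, a subunit of the replicative helicase, measured 7.10, 7.48, 7.59, 7.55 and 7.68 against 6.57, 5.80, 6.65, 6.52 and 6.16, a rise of 1.14 ± 0.17 with separate groups (adjusted p = 0.00345). Rrm1, the large ribonucleotide reductase subunit, rose by 1.28 ± 0.27, and Prim1, the catalytic primase subunit, by 1.15 ± 0.22.

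Promoters of mitosis genes are known for CCAAT boxes, which bind the factor NF-Y, and for the cell cycle homology region, CHR, here searched as TTTGAA. The 250 bases before the transcript start of the called members Ccnb1 and Anln are printed because each holds one of these motifs, which was the reason for their choice; capitals mark matches on either strand, and the sequences are from RefSeq on build GRCr8, chr2:33655226-33655475 and chr8:29197514-29197763, both minus strand.
Ccnb1: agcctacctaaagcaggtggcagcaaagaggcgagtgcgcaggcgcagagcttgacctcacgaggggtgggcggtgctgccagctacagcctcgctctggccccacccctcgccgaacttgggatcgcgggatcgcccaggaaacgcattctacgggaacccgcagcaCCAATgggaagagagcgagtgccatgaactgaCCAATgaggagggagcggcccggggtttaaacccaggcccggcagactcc
Anln: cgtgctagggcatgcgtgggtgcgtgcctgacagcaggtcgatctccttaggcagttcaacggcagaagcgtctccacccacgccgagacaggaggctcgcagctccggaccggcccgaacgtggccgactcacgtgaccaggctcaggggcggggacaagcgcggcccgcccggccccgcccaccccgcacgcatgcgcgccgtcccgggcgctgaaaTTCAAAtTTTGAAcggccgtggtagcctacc
The Ccnb1 window holds 2 matches of the NF-Y box and 0 of the CHR, and the Anln window holds 2 of the CHR and 0 of the NF-Y box. An NF-Y box was found in 23 of the 31 mitosis promoters with an entry (74.2%) and in 34.3% of 27457 promoters of the same length. The CHR letters were found in 14 of the 31 (45.2%) and in 16% of all. A match describes letters, not a bound site.

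Immediate early genes, which cells switch on within minutes of a stimulus, were mostly lower. Of 23 measured, 12 (52.2%) were called lower and 1 (4.35%) higher, against 23.9% and 22.4% of all genes. The median difference was -0.37. Between 10 and 15 were lower when any 1 array was left out. Ccn1, a secreted matricellular protein, measured 8.19, 7.55, 7.59, 7.69 and 7.56 at 0.08 mg/m3 against 8.68, 8.62, 8.62, 8.70 and 8.64 at 0.04 mg/m3, a difference of -0.94 ± 0.13 (adjusted p = 0.00345). Zfp36, which encodes the mRNA-destabilising protein tristetraprolin, measured 8.09, 7.89, 7.45, 7.59 and 7.63 against 8.89, 8.80, 8.63, 8.47 and 8.52, a difference of -0.93 ± 0.14. Groups were separate for both.

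The phosphatase gene Dusp1, which switches off MAP kinases, differed by -0.70 ± 0.10, and Klf2, a transcription factor induced by blood flow in endothelium, by -0.84 ± 0.11. Control means of Ccn1, Klf2 and Dusp1 were 9.04, 12.02 and 11.72, above the 0.04 mg/m3 arrays on average. Over the list the 0.08 mg/m3 arrays stood at 0.0885, -0.154, -0.0507, -0.0478 and -0.162, and the 0.04 mg/m3 arrays between 0.247 and 0.341. With axis position as a covariate the median of the list was -0.339, with 3 of 23 members positive and 0 called.

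Promoters of these genes often carry the CArG box that binds serum response factor and the core of the cyclic AMP response element, CRE, here searched as TGACG on both strands. The windows of Ccn1 (chr2:237225690-237225939) and Zfp36 (chr1:92799109-92799358), both minus strand of GRCr8 from RefSeq, are shown because each holds one of these motifs, in capitals.
Ccn1: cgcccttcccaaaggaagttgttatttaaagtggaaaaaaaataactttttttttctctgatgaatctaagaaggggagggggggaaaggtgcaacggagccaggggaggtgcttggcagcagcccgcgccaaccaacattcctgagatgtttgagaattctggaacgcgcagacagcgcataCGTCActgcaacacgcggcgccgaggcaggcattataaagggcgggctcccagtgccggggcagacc
Zfp36: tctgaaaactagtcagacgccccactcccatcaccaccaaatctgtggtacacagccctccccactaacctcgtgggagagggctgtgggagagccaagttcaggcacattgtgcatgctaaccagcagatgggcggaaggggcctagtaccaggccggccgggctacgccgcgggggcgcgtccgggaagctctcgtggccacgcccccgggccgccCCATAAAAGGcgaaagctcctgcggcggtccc
The Ccn1 window holds 1 CRE core and 0 CArG boxes, and the Zfp36 window holds 1 CArG box and 0 CRE cores. The CArG box was found in 4 of the 16 immediate early promoters with an entry (25%) and in 1.5% of all 27457, and the CRE core in 10 of 16 (62.5%) and in 19% of all.

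Stress genes of other kinds fell or were divided. Of 12 heat shock genes, 5 (41.7%) were called lower and 2 higher, beside 23.9% and 22.4% of all genes, though the median was 0.23. The 2 became 5 without replicate 1 of 0.08 mg/m3, 4 without replicate 1 or 3 of 0.04 mg/m3, and 1 without replicate 2 or 4 of 0.04 mg/m3 or replicate 4 or 5 of 0.08 mg/m3. Hspa1a, the inducible HSP70, measured 9.18, 8.73, 8.07, 8.71 and 9.07 against 9.81, 9.90, 9.49, 9.50 and 9.29, a difference of -0.85 ± 0.20 (adjusted p = 0.00579), and its co-chaperones Dnajb1 and Bag3 differed by -0.74 ± 0.17 and -0.71 ± 0.17. Of 15 glucocorticoid-responsive genes, 6 (40%) were lower and 3 (20%) higher, with the clock gene Per1 at -1.01 ± 0.20 beside Cebpd. Of 15 p53 targets, 6 (40%) were lower and 4 (26.7%) higher. Among them Mdm2, the ligase that degrades p53, rose by 1.04 ± 0.19 while Phlda3 and the cell cycle inhibitor Cdkn1a differed by -0.88 ± 0.19 and -0.75 ± 0.20.

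The unfolded protein and integrated stress list divided evenly, with 7 of 25 members (28%) called in each direction. Both shares were near those of all genes, 22.4% higher and 23.9% lower. Psat1, an enzyme of serine synthesis, measured 8.23, 8.77, 8.94, 9.11 and 9.47 against 7.96, 7.66, 7.74, 7.74 and 7.36, a rise of 1.21 ± 0.20. Asns, asparagine synthetase, rose by 0.79 ± 0.13, whereas Chac1, which degrades glutathione, differed by -0.76 ± 0.13.

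Among lipid genes more were called higher than lower, against 22.4% higher and 23.9% lower among all genes. Of 23 fatty acid genes, 11 (47.8%) were called higher and 2 (8.7%) lower, with a median of 0.34, and 4 were lower without replicate 1 of 0.08 mg/m3 and 1 without its replicate 4. Hadhb, the beta subunit of the mitochondrial trifunctional protein, measured 10.12, 10.57, 10.74, 10.64 and 10.83 against 9.61, 9.63, 9.77, 9.40 and 9.60, a rise of 0.98 ± 0.14 (adjusted p = 0.00345). Ehhadh, the peroxisomal bifunctional enzyme, rose by 0.95 ± 0.15 and Acadm, medium-chain acyl-CoA dehydrogenase, by 0.82 ± 0.14. Averaged over the fatty acid list, as deviations from the mean of all 50 arrays, the 0.08 mg/m3 arrays stood at 0.0863, 0.184, -0.0572, 0.00456 and 0.188, and the 0.04 mg/m3 arrays from -0.244 to -0.112. Over the 11 adipocyte markers measured, the 0.08 mg/m3 arrays stood at 1.17, 1.26, -0.705, 0.39 and 1.21, so within 0.08 mg/m3 both lists were higher in replicates 1, 2 and 5 than in 3 and 4; the part of fat tissue in the fatty acid calls was not tested. Of 20 cholesterol synthesis genes, 9 (45%) were higher and 5 (25%) lower, with a median of 0.41. Sqle, squalene epoxidase, measured 8.38, 8.84, 9.48, 9.26 and 9.49 against 8.20, 8.15, 7.87, 7.90 and 7.45, a rise of 1.18 ± 0.22, and Sc5d and Msmo1, which act later in the pathway, rose by 1.12 ± 0.21 and 1.03 ± 0.17. The 5 lower calls became 3 without replicate 2 or 4 of 0.04 mg/m3 or replicate 3 or 4 of 0.08 mg/m3.

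Genes of the respiratory chain and of protein turnover rose in part. Of 37 oxidative phosphorylation subunits, 13 (35.1%) were called higher and 4 (10.8%) lower, with a median of 0.085. The higher members were led by Ndufs1 and by Uqcrc2 of complex III (0.88 ± 0.17) and Sdha of complex II (0.87 ± 0.17). Of 33 proteasome subunits, 13 (39.4%) were higher and 5 (15.2%) lower, with Psmd6 at 0.88 ± 0.17 and Psma1 at 0.86 ± 0.18. Among all genes 22.4% were higher and 23.9% lower. In the brightest quintile, by level in the arrays outside the comparison, 39.8% were higher and 17.8% lower. Without replicate 1 of 0.08 mg/m3, 10 respiratory subunits and 9 proteasome subunits were called lower. Omission of any other single array, apart from replicate 2 of 0.08 mg/m3 and, for the proteasome, also replicate 3 of 0.04 mg/m3, left 1 or 2 respiratory and 2 or 3 proteasome subunits lower.

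Cytosolic ribosomal proteins were called higher in 10 of 34 cases (29.4%) and lower in 0, with a median of 0.068. The share of rises was 22.4% among all genes and 39.8% in the brightest quintile. Rpl4 rose by 0.73 ± 0.16. The count of 10 became 6 without replicate 4 of 0.08 mg/m3. Of 27 splicing factors, 6 (22.2%) were higher and 1 lower, a share of rises like that of all genes, and 11 were higher without replicate 1 of 0.08 mg/m3.

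Genes that handle foreign compounds and oxidants were more often higher than lower, against 22.4% higher and 23.9% lower among all genes. Of 21 foreign-compound genes, 11 (52.4%) were called higher and 3 (14.3%) lower, and 7 were higher without replicate 4 of 0.04 mg/m3 or replicate 4 or 5 of 0.08 mg/m3. The 3 lower calls became 1 without replicate 1, 2 or 4 of 0.04 mg/m3 or replicate 4 of 0.08 mg/m3. Gstm5, a glutathione transferase, measured 7.47, 8.09, 8.23, 8.44 and 8.94 against 7.10, 7.23, 7.41, 7.17 and 6.96, a rise of 1.06 ± 0.21. Of 21 targets of NRF2, the transcription factor of the oxidant response, 7 (33.3%) were higher and 3 lower. Gclc and Gclm, the subunits of the enzyme that starts glutathione synthesis, rose by 0.96 ± 0.17 and 0.68 ± 0.13, while Gsr, which recycles glutathione, differed by -0.56 ± 0.19. The 3 lower calls became 5 without replicate 1 of 0.08 mg/m3, 1 without replicate 5 of 0.04 mg/m3, and 0 without replicate 2 or 4 of 0.04 mg/m3 or replicate 3, 4 or 5 of 0.08 mg/m3.

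Metal handling genes did not stand apart from the background. Of 16 metallothioneins and metal transporters, 3 (18.8%) were called higher and 3 (18.8%) lower, and 5 were higher without replicate 1 of 0.08 mg/m3. Besides Steap4, the copper pump Atp7a rose by 0.85 ± 0.18. The zinc importers Slc39a4 and Slc39a2 differed by -0.90 ± 0.19 and -0.87 ± 0.19.

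**Figure D4:**
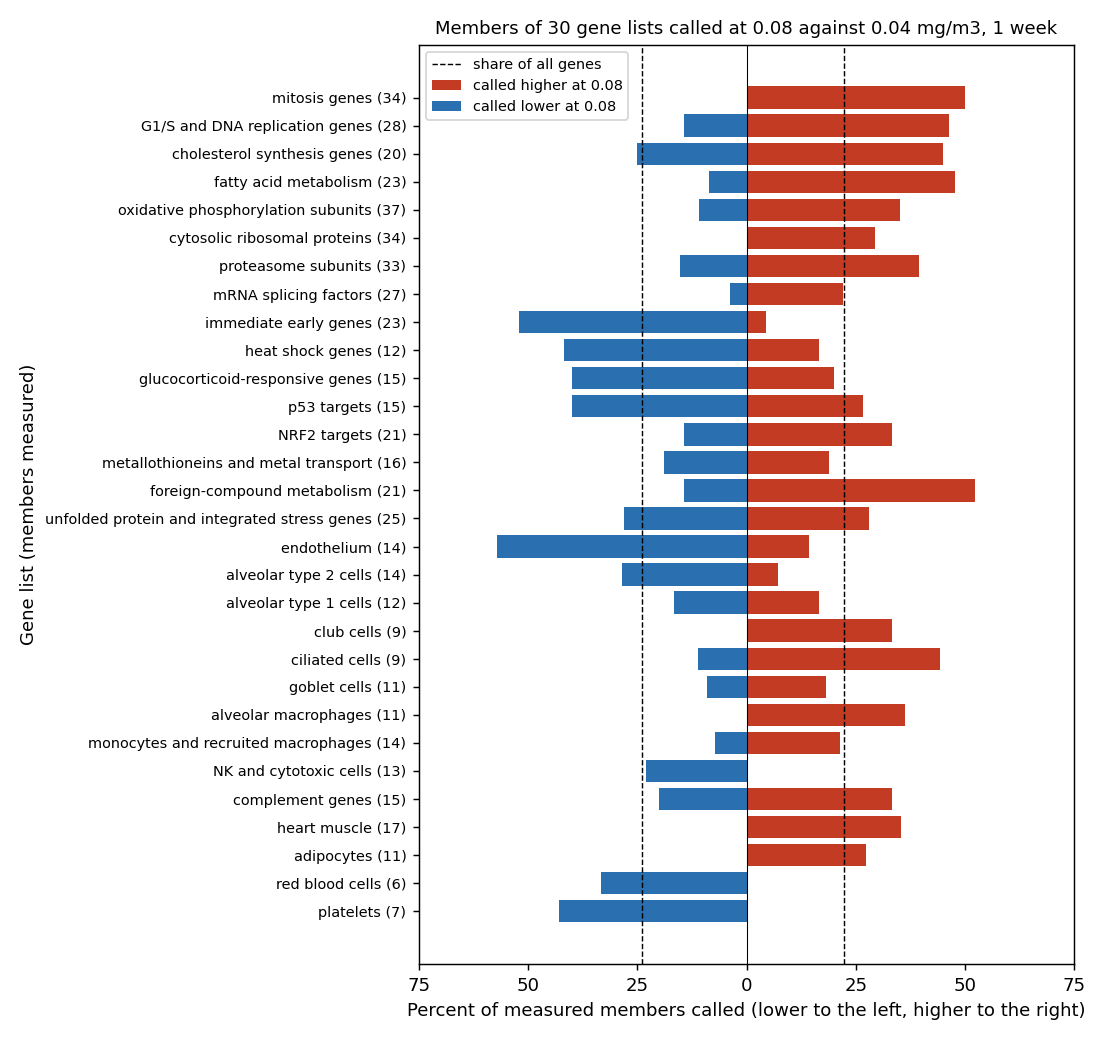
Percent of the measured members of 30 gene lists called lower (bars to the left) or higher (bars to the right) at 0.08 than at 0.04 mg/m3 after 1 week; dashed lines mark the shares of all genes, 23.9% lower and 22.4% higher. Mitosis genes reach 50% higher with no bar to the left, and immediate early genes and endothelium reach 52.2% and 57.1% lower.

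Markers of lung cell types differed by type, beside 22.4% higher and 23.9% lower among all genes. Of 14 endothelial markers, 8 (57.1%) were called lower and 2 (14.3%) higher, with a median of -0.44. Mean deviations of the list from its average over the whole series were -0.126, -0.247, 0.287, -0.0519 and -0.317 at 0.08 mg/m3. At 0.04 mg/m3 they were -0.178, -0.143, 0.323, -0.0552 and 0.311, so the groups overlapped in the list mean. Tie1, an endothelial receptor, measured 8.06, 7.72, 8.00, 7.73 and 7.48 against 8.28, 8.37, 8.82, 8.65 and 8.84, a difference of -0.79 ± 0.15 (adjusted p = 0.0036). Vwf and Plvap differed by -0.67 ± 0.17 and -0.65 ± 0.14. The VEGF receptor Kdr rose by 0.66 ± 0.25 (adjusted p = 0.0445), and Pecam1 differed by 0.10 ± 0.16 and was not called (adjusted p = 0.63). Without replicate 1 of 0.08 mg/m3, 5 endothelial markers were higher and 8 lower, 0 were higher without replicate 3 or 4 of 0.08 mg/m3 or replicate 2 of 0.04 mg/m3, and 1 without replicate 5 of 0.08 mg/m3 or replicate 1 or 4 of 0.04 mg/m3.

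Alveolar markers were called in both directions, beside 22.4% higher and 23.9% lower among all genes. Of 14 type 2 markers, 4 (28.6%) were lower and 1 (7.14%) higher, and the 1 became 3 without replicate 1 of 0.08 mg/m3, 2 without replicate 3 of 0.04 mg/m3, and 0 without replicate 1, 2 or 4 of 0.04 mg/m3 or replicate 3, 4 or 5 of 0.08 mg/m3. Among the lower ones, Napsa, a protease that processes surfactant protein B, differed by -0.60 ± 0.15, and Sftpb itself by -0.28 ± 0.10. Of 12 type 1 markers, 2 (16.7%) were lower and 2 (16.7%) higher. The water channel Aqp5 and Ager differed by -0.49 ± 0.12 and -0.52 ± 0.15, and the caveolae protein Cav1 and the sodium channel subunit Scnn1g rose by 0.66 ± 0.20 and 0.62 ± 0.16. Without either replicate 3 of 0.04 mg/m3 or replicate 1 of 0.08 mg/m3, 4 type 1 markers were called higher.

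Markers of airway cells were called in both directions, beside 22.4% higher and 23.9% lower among all genes. Of 9 club cell markers, 3 (33.3%) were higher and 0 lower: Gsta3 by 0.74 ± 0.18, Fmo2 by 0.64 ± 0.17 and Aldh1a1 by 0.57 ± 0.12. Of 9 ciliated cell markers, 4 were higher, with Tekt1 of the ciliary microtubules at 0.79 ± 0.14, and 1 was lower, the ciliogenesis regulator Foxj1 at -0.43 ± 0.15. That 1 lower call became 2 without replicate 1 of 0.08 mg/m3 and 0 without replicate 1, 2 or 4 of 0.04 mg/m3 or replicate 2 or 3 of 0.08 mg/m3. Agr2, a disulfide isomerase needed for mucin folding, measured 11.08, 11.36, 11.52, 11.73 and 11.87 against 10.91, 10.52, 10.30, 10.76 and 10.55, a rise of 0.91 ± 0.16. Agr2 and Clca1 were the 2 of 11 goblet cell markers (18.2%) called higher. The trefoil peptide Tff3 was the 1 called lower (-0.49 ± 0.14), and 3 were lower without replicate 1 of 0.08 mg/m3 or replicate 3 of 0.04 mg/m3 and 2 without replicate 2 of 0.08 mg/m3. The mucin Muc5b was not called (0.63 ± 0.32, adjusted p = 0.121). Of 13 markers of basal and injured epithelium, 1 (7.69%) was higher and 2 (15.4%) lower, with a median of -0.27: Tp63, the basal cell transcription factor, rose by 0.50 ± 0.19, and Sfn and the keratin Krt7 differed by -0.59 ± 0.15 and -0.47 ± 0.15. The Tp63 call was marginal (limma adjusted p = 0.0457, up to 0.105 with 1 array left out). When every probe set was tested, 0 of its 2 were called higher.

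Macrophage markers included both directions, beside 22.4% higher and 23.9% lower among all genes. Of 11 alveolar macrophage markers, 4 (36.4%) were higher and 0 lower, and this became 1 or 2 without replicate 1, 2 or 4 of 0.04 mg/m3 or replicate 3 or 4 of 0.08 mg/m3. Pparg, the nuclear receptor that shapes alveolar macrophages and is also active in fat, rose by 0.86 ± 0.14. Of 14 markers of monocytes and recruited macrophages, 3 were higher and 1 lower, and 5 were higher without replicate 1 of 0.08 mg/m3 and 1 without its replicate 4. Mmp12, macrophage elastase, measured 5.32, 5.86, 7.24, 7.72 and 7.26 against 5.55, 5.84, 5.97, 5.43 and 5.03, so that replicates 3 to 5 of 0.08 mg/m3 lay above every 0.04 mg/m3 array and replicates 1 and 2 did not. It rose by 1.12 ± 0.39 (adjusted p = 0.034). Trem2 differed by -0.97 ± 0.26. Its control mean of 6.78 was nearer to 0.08 mg/m3 (6.80) than to 0.04 mg/m3 (7.77).

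Markers of blood-borne cells were called in both directions, beside 22.4% higher and 23.9% lower among all genes. Of 13 markers of NK and cytotoxic cells, 3 (23.1%) were lower, beside 23.9% of all genes, and 0 higher, with the granzyme Gzmm at -0.91 ± 0.19; 2 were higher without replicate 5 of 0.04 mg/m3 or replicate 1 of 0.08 mg/m3. Of 8 B cell markers 1 was higher, the surface protein gene Ms4a1 (1.18 ± 0.46, limma adjusted p = 0.0484). Ms4a1 averaged 7.73 in controls, above both 6.30 at 0.04 and 7.48 at 0.08 mg/m3. Of 15 T cell markers 1 was higher, Cd8a (0.71 ± 0.24), and 2 lower. Of 7 platelet markers, 3 (42.9%) were lower, led by Treml1 at -1.04 ± 0.29. Of 6 red cell markers 2 (33.3%) were lower, which became 3 without replicate 1 of 0.04 mg/m3 and 1 without replicate 3, 4 or 5 of 0.04 mg/m3 or replicate 3 or 4 of 0.08 mg/m3. They were led by the heme synthesis enzyme Alas2 at -1.15 ± 0.29. Alas2 measured 7.78, 8.10, 7.29, 6.46 and 6.81 against 7.89, 8.18, 8.73, 8.43 and 8.96. Replicate 2 of 0.08 mg/m3 overlapped with 0.04 mg/m3, and replicate 1 lay just below its lowest array. In controls Alas2 averaged 7.54 and Treml1 5.63, nearer to 0.08 mg/m3 (7.29 and 5.49) than to 0.04 mg/m3 (8.44 and 6.53). Of 15 complement genes, 5 (33.3%) were higher and 3 (20%) lower. The central component C3 measured 10.85, 10.98, 11.36, 11.34 and 11.52 against 10.67, 10.52, 10.34, 10.29 and 10.45, a rise of 0.76 ± 0.14.

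Markers of muscle and fat varied between single arrays. For all genes the shares called were 22.4% higher and 23.9% lower. Of 17 heart muscle markers, which the muscular sleeve of pulmonary veins also expresses in rodents, 6 (35.3%) were higher and 0 lower, but 2 or 3 were higher without replicate 2 or 5 of 0.04 mg/m3 or replicate 4 or 5 of 0.08 mg/m3. Averaged over that list, as deviations from the mean of all 50 arrays, the 0.08 mg/m3 arrays ran from -0.823 to 0.266 and the 0.04 mg/m3 arrays from -1.02 to -0.346. Of 11 adipocyte markers, 3 (27.3%) were higher and 0 lower, a share of rises near the 22.4% of all genes. Over that list the 0.08 mg/m3 arrays stood at 1.17, 1.26, -0.705, 0.39 and 1.21, the 0.04 mg/m3 arrays between -0.83 and 0.535, and the controls between 0.0195 and 1.12. Their part in the other results was not tested.

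Ucp1, the uncoupling protein that defines brown fat, had the widest spread. It measured 11.19, 11.35, 6.03, 7.12 and 10.17 at 0.08 mg/m3 and 5.80, 8.11, 3.17, 8.39 and 4.93 at 0.04 mg/m3, a rise of 3.09 ± 1.16 (adjusted p = 0.0433). The 1-week controls ran from 3.67 to 10.23, with the highest value in replicate 4. With 1 array left out, the adjusted p for Ucp1 reached 0.101 (limma), so the call depended on single arrays. Replicates 1, 2 and 5 of 0.08 mg/m3 were high, and replicates 3 and 4 overlapped with 0.04 mg/m3. Cidea, a lipid droplet protein abundant in brown fat, measured 9.73, 9.60, 7.15, 7.88 and 9.35 against values from 7.17 to 8.10 at 0.04 mg/m3, with the same 3 arrays high. Adipoq, the adiponectin gene, measured 6.95, 8.08, 6.80, 8.13 and 8.68 against a highest value of 6.85 at 0.04 mg/m3 and was called higher (adjusted p = 0.00761).

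With axis position in the model, 9 genes were called, several of them known from brown fat: Ucp1, Cidea, Adig, Adrb3, Cpt1b, Clybl, Pex6, Tlcd3b and Trim29. Cpt1b, the muscle and brown fat carnitine palmitoyltransferase, measured 7.79, 7.56, 5.38, 6.08 and 7.00 against 6.11, 5.97, 5.64, 6.36 and 5.91 and was not called without the covariate (adjusted p = 0.114). Nor were Adig, an adipocyte protein, and Adrb3, the fat-specific beta adrenergic receptor, with differences of 0.36 ± 0.46 and 0.03 ± 0.40. Without replicate 3 of 0.08 mg/m3, the fat marker calls rose from 3 to 7, and they fell to 1 without replicate 1, 2 or 5 of 0.08 mg/m3 or replicate 1, 3 or 5 of 0.04 mg/m3.

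**Figure D5:**
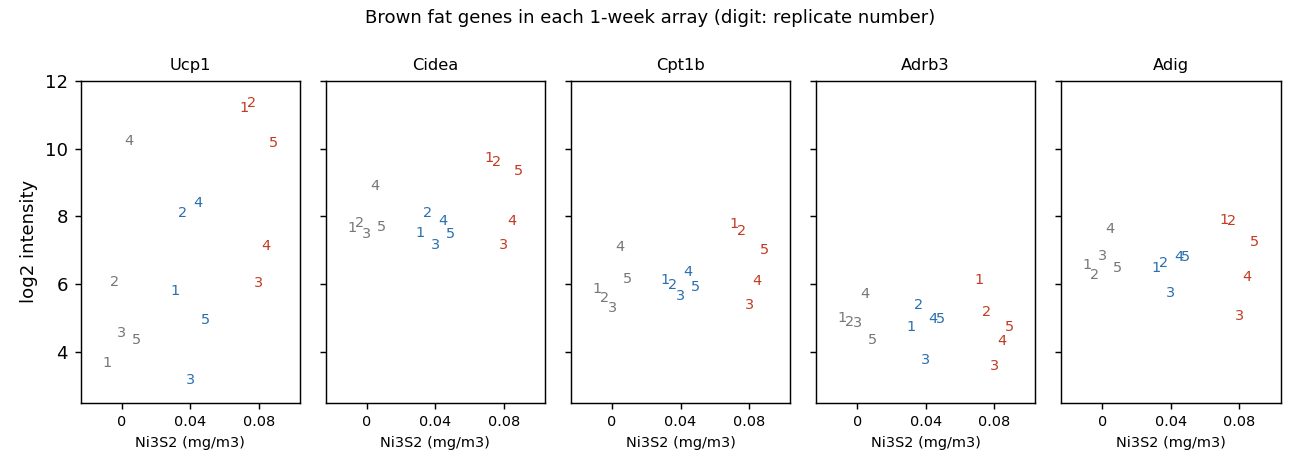
log2 intensity of 5 genes known from brown fat in the 1-week control, 0.04 and 0.08 mg/m3 arrays, where each digit is an array and gives its replicate number. In the 0.08 mg/m3 group, replicates 1, 2 and 5 lie above replicates 3 and 4 in all 5 panels; Ucp1 reads 11.19, 11.35 and 10.17 in the former and 6.03 and 7.12 in the latter.

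In a group of 23 lists described only by counts or single genes, B cells, T cells and basal and injured epithelium among them, each list held between 0 and 42.9% of members called higher and between 0 and 38.5% called lower, with medians from -0.27 to 0.36. They also included neutrophils, fibroblasts, interferon-induced genes, chemokines and clock genes.

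The length of the gene in the genome moved with the direction of the difference. Over 13382 genes with an entry in the rat annotation (GRCr8), genes called lower spanned a median of 13 kb, genes called higher 32.1 kb and genes not called 24.6 kb. In the quintile of genes with the shortest span (median 3.89 kb), 10.2% were called higher and 35.3% lower. In the quintile with the longest span (median 126 kb), 28.4% were higher and 8.22% lower. The correlation of span with the log2 difference, across genes that are not independent and share the same 10 arrays, was a Spearman rho of 0.29. With axis position as a covariate, the rho was -0.11, of the opposite sign. Level moved with the calls as well: in the dimmest quintile, by level in the arrays outside the comparison, 0.446% were higher and 7.07% lower, and in the brightest 39.8% and 17.8%. The part of gene length and level in the named results was not tested.

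The same step in concentration was measured in other animals after 4 weeks. There, 0 genes were called (0%) by limma, 568 (4.23%) had an unadjusted p under 0.05, and in 103 (0.766%) the groups did not overlap. The 568 became 1802 without replicate 4 of 0.08 mg/m3 and 354 without its replicate 3, with 0 called in both cases. The median size of a difference was 0.0639, against 0.349 at 1 week. Across 13438 genes the differences at the 2 times had a Pearson r of 0.035, and 53.5% of genes had the same sign. The axis positions of the 4-week arrays were also closer, with means of 9.31 ± 9.4 at 0.08 and 6.43 ± 2.27 at 0.04 mg/m3.

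The difference between the times was itself tested over the 20 arrays. The 1-week step minus the 4-week step was called in 4806 genes (35.8%), positive in 2582 (19.2%) and negative in 2224 (16.6%). Of the 24 genes chosen above for a large 1-week step, 22 were called, and Clca1 and Lypd6b were not; that step enters this difference, so the count is a description. Ppp1r3b differed by 0.27 ± 0.13 between the concentrations at 4 weeks, Rrm2 by 0.13 ± 0.11, Cebpd by -0.10 ± 0.15 and Upk1a by -0.23 ± 0.15. The mitosis list had a median of 0.132 at 4 weeks, with 31 of 34 members positive and 0 called. The immediate early list had a median of 0.0185, with 12 of 23 positive. The median of all genes at 4 weeks was -0.0192.

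Genes with the lowest unadjusted p at 4 weeks are given as values, since none was called. Fkbp5, a glucocorticoid-induced chaperone, differed by 0.96 at 4 weeks and had risen by 0.62 ± 0.16 at 1 week. Tent5b and Eps8 differed by 0.68 and 0.30 at 4 weeks. At 1 week Tent5b had fallen, with a difference of -1.17 ± 0.31, and Eps8, an actin regulator, had risen by 0.80 ± 0.13. Sugct, Ghrhr and Pcdhb19 differed by -0.24, -0.24 and -0.27 at 4 weeks, and by 0.20, -0.20 and 0.61 at 1 week, where Pcdhb19 was called.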

How the data were processed

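Expression was measured on 50 arrays, 1 rat each, in 10 groups of 5. The authors deposited log2 intensities, which the submitters' processing notes tie to RMA and Partek. Versions, scan dates and batches: not given in the sources used here. Values were used as deposited. Probe sets with exactly 1 symbol in the platform's gene table (19063 of 31042) were kept, and for each of 13438 genes the brightest one on average over the 50 arrays stood for the gene. limma 3.58.1 in R 4.3.3 was fitted to the 10 arrays, two-sided, with Benjamini-Hochberg adjustment over all genes; the 4-week step and the difference between times used 10 and 20 arrays.

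The deposited table held no control probe sets, so planned measures of RNA degradation and spikes were not made; the array median and interquartile range stand in. The 53 gene lists held 988 symbols, of which 820 were matched, and are described by counts beside those of all genes, without a test. Members and lists were chosen with earlier results of these data known. Named genes were the 12 largest rises and falls whose groups did not overlap, up to 4 members per list by size of difference, the 3 lowest p per direction at 4 weeks, and genes called with the axis covariate; symbols starting with LOC, RGD or AABR were not named. The code was tested on simulated data. Precision is limited by having 5 arrays in a group.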

Additional observations from a re-analysis of the deposited data

Results flagged for a closer look

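The step from 0.04 to 0.08 mg/m3 differed between 1 and 4 weeks in 4806 genes by the test of the difference itself (limma, adjusted p under 0.05). For the 1-week step minus the 4-week step, the rises gave 1.47 for Ppp1r3b, 1.68 for Gabrp, 1.64 for Mcpt1, 1.41 for Cfi, 1.22 for Steap4 and 1.29 for Rrm2. Values for Fig4, Etfrf1, Myo5b and Ndufs1 were 1.33, 1.29, 1.31 and 1.12. Among the falls, the same difference was -1.20 for Upk1a, -1.16 for Cebpd, -1.32 for Upk3a, -1.15 for Hgfac, -1.02 for Chst2 and -1.32 for Mfsd2a. It was -1.04 for Fzd2, -1.04 for Slc12a9, -0.93 for Fgfr4, -1.03 for Dipk1b, -1.11 for Maff and -1.07 for Gdpd5. Of 121 other named genes, 79 differed between the times, against 35.8% of all genes tested. Most named genes were chosen for the size of their 1-week step, which is part of this contrast, so neither these values nor the 79 are independent of the choice.

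In 15 of 292 groups of 5 examined, 1 array lay far from the other 4 by Dixon's criterion, which chance meets in about 1 group in 20. At 0.08 mg/m3 these were Ccdc113 (8.60) and Ccn1 (8.19) in replicate 1, Cyp2a3 (11.60) in replicate 3, Slc4a1 (3.67) in replicate 4 and C6 (5.98) in replicate 5. Both replicate 1 values were the nearest of their group to the 0.04 mg/m3 arrays. At 0.04 mg/m3, replicate 5 stood apart in Scgb1a1 (13.44), Prf1 (10.24) and Cdkn1a (9.86), and replicate 3 in Trim29 (4.28). Replicate 1 stood apart in Aldh1a1 (12.09) and Trem2 (7.07). Replicate 2 stood apart in Tlcd3b (5.02), Prim1 (4.98), Sc5d (6.12) and Chac1 (7.41).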

How the results depend on the processing

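The count of genes called at 1 week was 9935 with array weights, 9 with axis position as a covariate and 3400 with a minimum change of 1.5-fold, against 6227; of the 9, 2 were among the 6227. With 1 array left out it ran from 4611 to 7436. For the difference between times the count was 8794 with array weights and 3116 with the minimum of 1.5-fold, against 4806, and ran from 3683 to 6539 with 1 array left out. At 4 weeks 1 gene was called in a model of all 50 arrays and 0 with any array left out. The distance on the axis ran from 39.5 to 56.2, the difference in array median from 0.104 to 0.148 and that in interquartile range from 0.0978 to 0.16, with exact permutation p from 0.0238 to 0.103. The 24 genes with the largest changes and separate groups were called under each other setting and omission, except that 2 were removed by the filter on the dimmest 25% of genes, and none was called under the axis covariate. Of 64 counts over gene lists, 34 moved by over 1.5 times with array weights, 52 with the axis covariate, 21 in a model of all 50 arrays, 4 after centring and 7 after quantile normalization. The causes were not tested.

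Same-numbered arrays were not treated as pairs, and whether they share handling was not tested. Their deviations correlated at -0.298, 0.09, 0.61, -0.409 and -0.135. Over all pairs of arrays across the groups, r ran from -0.523 to 0.61, the highest being the pair of replicate 3. With the replicate block, 6084 genes were called at 1 week, 0 at 4 weeks and 4539 for the difference between times. The number of arrays, and the overlap of axis position with concentration, limit what the comparison can separate.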

Other observations

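Inflammatory signalling genes were divided. The cytokine gene Il1b measured 6.93, 7.42, 8.15, 7.84 and 8.23 at 0.08 mg/m3 against 6.78, 6.70, 6.74, 6.76 and 6.84 at 0.04 mg/m3, a rise of 0.95 ± 0.21 with separate groups (limma adjusted p = 0.00494). The NF-kB subunit genes Nfkb2 and Relb differed by -0.92 ± 0.18 and -0.85 ± 0.25, and Nfkbiz, a nuclear regulator of NF-kB, rose by 0.67 ± 0.14. The list that holds them had 4 of 19 members called in each direction (21.1%), near the shares of all genes. Among chemokines, 6 of 22 (27.3%) were higher and 2 lower, beside 22.4% and 23.9% of all genes. Cxcl13, which attracts B cells, measured 7.19, 7.91, 8.89, 9.14 and 9.27 against 7.98, 8.23, 7.30, 6.54 and 6.28. Replicates 3 to 5 of 0.08 mg/m3 stood above the 0.04 mg/m3 arrays and replicates 1 and 2 did not. Its control mean was 8.89 ± 0.61 (SD), above the means of 7.27 at 0.04 and 8.48 at 0.08 mg/m3.

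Lysosomal and matrix genes also differed, beside 22.4% higher and 23.9% lower among all genes. Of 21 lysosome and lipid handling genes, 9 (42.9%) were higher and 4 lower, with the proteases Ctss and Ctsl at 0.89 ± 0.25 and 0.85 ± 0.20 and the membrane protein Lamp2 at 0.63 ± 0.15. Of 23 fibroblast and matrix genes, 4 (17.4%) were called in each direction. Tnc, a matrix protein of injured tissue, rose by 1.17 ± 0.32, and Fbln1 and Loxl1, proteins of elastic fibres, differed by -0.77 ± 0.15 and -0.63 ± 0.12. The smooth muscle actin gene Acta2 differed by -0.61 ± 0.13. Bhlhe40, a clock regulator, rose by 1.10 ± 0.18. None of these genes was called with axis position as a covariate or at 4 weeks.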
